A study of Mus musculus with 6 samples.

Results

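The thermogenic and beige adipocyte genes examined here were Ucp1, Cidea, Dio2, Elovl3, Cox7a1, Cox8b, Ppargc1a, Prdm16, Ebf2 and Kcnk3. These 10 genes were taken by symbol from a table of 21456 genes, and each of the 10 symbols matched 1 row. The table held bulk RNA-seq of WATs from 3 mice with Ntsr2 flox/flox alone (control) and 3 with Adipoq-cre::Ntsr2 flox/flox (Ntsr2 AKO). All 6 mice carried floxed Ntsr2 alleles and ate chow, and in Ntsr2 AKO mice Cre was driven by the Adipoq promoter, which is active in white, beige and brown adipocytes alike. The labels name the tissue as adipose, and neither they nor the methods give the depot, age or sex of these mice. Replicates 3, 4 and 5 of both genotypes were different animals. In whole tissue, fewer cells of a type and less RNA per cell cannot be told apart.

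Brown and beige adipocytes burn fatty acids to make heat. Cold or noradrenaline raises cyclic AMP, lipolysis feeds the mitochondria, and UCP1 lets protons return across the inner membrane without ATP synthesis. Beige adipocytes arise within white fat, mainly in subcutaneous depots, and their identity is set by factors such as EBF2 and PRDM16. CIDEA enlarges lipid droplets, DIO2 activates thyroid hormone within the cell, and ELOVL3 elongates fatty acids. PGC-1alpha, the product of Ppargc1a, drives mitochondrial biogenesis. KCNK3 is a potassium channel of the plasma membrane that restrains thermogenic signalling. COX7A1 and COX8B are subunits of cytochrome c oxidase that replace the ubiquitous COX7A2 and COX8A in brown fat, heart and skeletal muscle, so their transcripts do not mark thermogenic fat alone. For that reason they were read against muscle transcripts of the same mouse.

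Regulatory sequences are shown for 4 members, since they hold letters by which cyclic AMP signalling and muscle regulatory factors are known to act on genes, the 2 settings in which these members are usually read. Each run holds 250 bases before and 30 after the RefSeq start on GRCm38.p6, 5′ to 3′ along the gene. Capitals mark the cyclic AMP response element TGACGTCA or its core TGACG in Ucp1 and Dio2, and the E-box CANNTG, the motif of muscle regulatory factors and other helix-loop-helix proteins, in Cox7a1 and Cox8b.
Ucp1 (uncoupling protein, chr8:83290098-83290377, plus strand): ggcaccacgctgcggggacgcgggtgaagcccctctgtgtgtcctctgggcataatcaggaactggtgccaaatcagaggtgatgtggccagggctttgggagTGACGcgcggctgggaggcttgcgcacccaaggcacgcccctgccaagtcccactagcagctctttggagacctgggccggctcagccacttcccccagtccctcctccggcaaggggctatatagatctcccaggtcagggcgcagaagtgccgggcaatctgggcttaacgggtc
Dio2 (deiodinase, chr12:90739009-90739288, minus strand): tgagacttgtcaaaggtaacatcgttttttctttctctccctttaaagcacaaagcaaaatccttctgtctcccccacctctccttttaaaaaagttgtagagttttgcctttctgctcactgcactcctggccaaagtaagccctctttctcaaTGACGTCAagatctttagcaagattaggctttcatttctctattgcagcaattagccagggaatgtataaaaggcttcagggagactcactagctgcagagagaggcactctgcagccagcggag
Cox7a1 (cytochrome c oxidase subunit, chr7:30183921-30184200, plus strand): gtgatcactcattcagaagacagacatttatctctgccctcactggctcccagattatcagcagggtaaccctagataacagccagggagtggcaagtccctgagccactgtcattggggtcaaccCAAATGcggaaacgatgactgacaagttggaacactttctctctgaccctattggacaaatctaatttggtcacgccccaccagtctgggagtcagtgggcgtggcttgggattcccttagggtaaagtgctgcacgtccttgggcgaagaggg
Cox8b (cytochrome c oxidase subunit, chr7:140900417-140900696, minus strand): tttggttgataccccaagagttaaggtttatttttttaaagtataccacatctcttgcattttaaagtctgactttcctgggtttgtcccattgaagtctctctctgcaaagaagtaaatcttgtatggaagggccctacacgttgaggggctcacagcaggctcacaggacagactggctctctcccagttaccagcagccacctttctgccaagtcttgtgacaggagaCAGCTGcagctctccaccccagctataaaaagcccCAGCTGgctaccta

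Motifs were searched on both strands in windows of 300 bases, which end 50 bases after the start, among 32851 mouse promoters. The full element TGACGTCA was found in 1.79% of them and lay at position -95 of Dio2, counted from the start. The core TGACG, which the full element contains, was found in 20.8% and lay at -147 of Ucp1. The E-box CANNTG was found in 72.3% of promoters. Cox7a1 held 1 E-box, CAAATG at -124, and Cox8b held CAGCTG at -19 and at 17, a form found in 16.3% of promoters. The GENCODE gene model begins 27 bases upstream of the RefSeq start in Cox7a1 and 600 bases downstream of it in Dio2. Of the 10 members, the promoters of 6 were searched, and the letters were not particular to the 4 shown. Ppargc1a held the core element on the other strand at -49 and 6 E-boxes, and Prdm16 held 1 E-box at 13. These matches describe the letters only.

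Primers listed by the study were also matched for 7 of the members, 20 bases each, with Cidea left out of this step. They are shown for 3 members, 1 carrying the uncoupling function and 2 shared with muscle, because each pair fixes which transcript a PCR would read.
Ucp1 forward: aagtccgccttcagatccaa
Ucp1 reverse: cggctgagatcttgtttccg
Cox7a1 forward: tggtccggtcttttagctca
Cox7a1 reverse: agagtcagcgtcatggtcag
Cox8b forward: ttcccaaagcccatgtctct
Cox8b reverse: ctggaaccatgaagccaacg
The Ucp1 pair gave a product of 246 bases in the annotated transcript, with the forward primer across the junction of exons 1 and 2 and the reverse primer in exon 3. The Cox7a1 pair gave 154 bases from exon 2 to exon 3. The Cox8b pair gave 102 bases from exon 1 to exon 2. No pair matched a transcript of another gene.

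Values are normalized counts, the reads of a gene divided by 1 size factor for each mouse. Whole reads could be recovered, and each control mouse had at least 60405373 and each Ntsr2 AKO mouse at least 54085088. The targeted gene, Ntsr2, had 91, 62 and 159 reads in control mice and 3, 8 and 0 reads in Ntsr2 AKO mice. The adipocyte marker Adipoq was present in all 6 mice. The summed count of 8 white adipocyte markers ranged from 1222421 in control 5 to 1785732 in control 4. Skeletal muscle transcripts were found in all 6 libraries and were far higher in 3 of them, control 5 and Ntsr2 AKO 4 and 5, the libraries rich in muscle transcripts. Control 3 also stood apart, with 67722 normalized counts of Lep against 5997 to 17222 in the other mice. It had the lowest value of 5 of the 10 members.

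The members spanned a wide range of levels. Levels are given per kb of exon, with the exons of all annotated transcripts joined, so genes can be compared only roughly. The mean over the 6 mice was 7588 normalized counts per kb for Cox8b and 3840 for Cidea. It was 646 for Kcnk3, 551 for Cox7a1 and 298 for Ebf2. Ppargc1a (111 per kb) and Prdm16 (92.2 per kb) followed. Ucp1 (18.5 per kb), Dio2 (11.8 per kb) and Elovl3 (3.59 per kb) were lowest. Between neighbours in this order, the ranges over the 6 mice were apart for Cidea and Kcnk3 and for Prdm16 and Ucp1, and they overlapped for all other neighbours. Cidea, a widely used brown fat marker, had at least 2319 reads in every mouse, while Ucp1 had at most 54.

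Genotype differences were tested with limma on log2(normalized count + 1) over the 16157 genes with a mean of at least 10, with Benjamini-Hochberg adjustment over all of them. Elovl3 fell under this mean, so 9 of the 10 members were tested. At an adjusted p under 0.05, limma called 0 of the 9, against 0.00619% of all genes (1 gene). edgeR on recovered reads also called 0 of the 9 (0.0% of all genes), with 3 at an unadjusted p under 0.05 beside 8.19% of all genes. DESeq2 called 1 of the 9, beside 1.36% of all genes. At an unadjusted p under 0.05 limma gave 3 members higher in Ntsr2 AKO mice, Ebf2, Kcnk3 and Cidea, and 0 lower. Of all genes tested, 3.08% met that rule in the higher direction and 5.27% in the lower direction. The same 3 members were the ones in which every Ntsr2 AKO mouse lay above every control mouse, a pattern found in 6.82% of all genes. The opposite pattern was found in 8.16% of all genes and in 0 of the 9 members. The median log2 fold change was 0.29 over the 9 members and -0.01 over all genes. The other 6 members overlapped between genotypes.

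**Figure D1:**
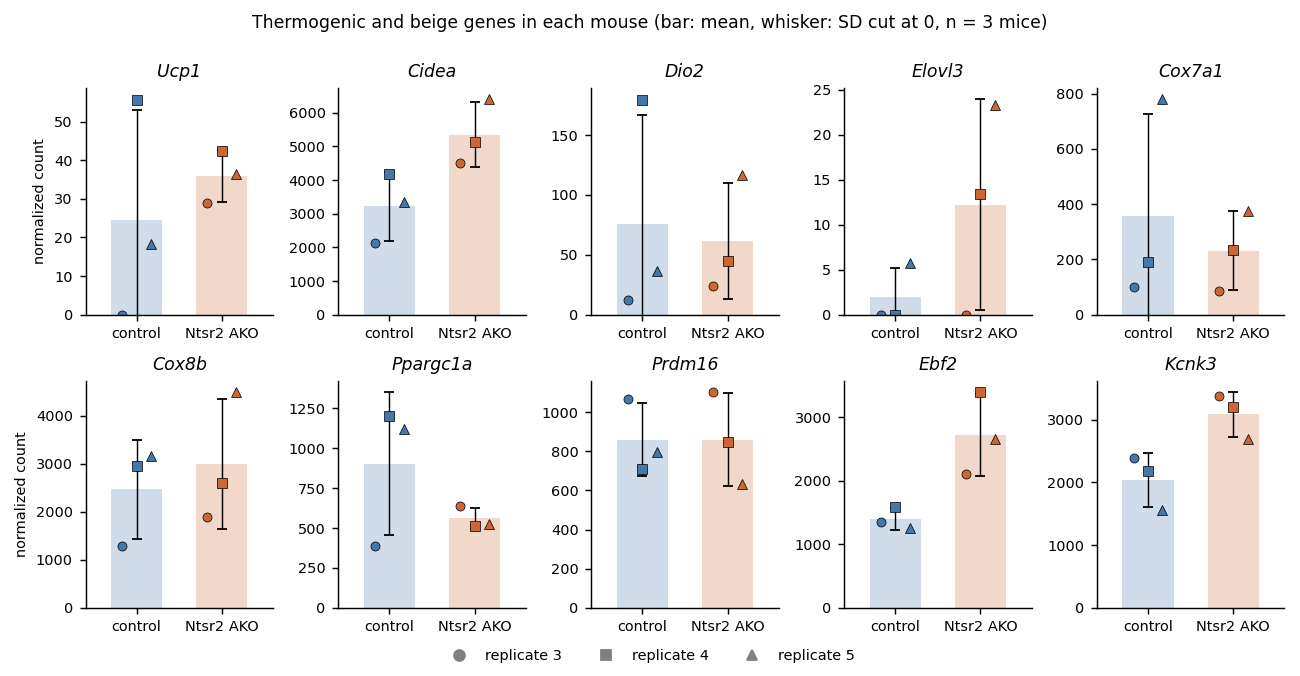
Normalized counts of the 10 members in each of the 6 mice (points, with a symbol for each replicate), with the mean (bar) and SD (whisker, cut at 0) of 3 mice. Ebf2, Kcnk3 and Cidea separate by genotype, and the remaining 7 panels, Elovl3 included, overlap.

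Ebf2, a transcription factor that marks beige and brown precursors and opens chromatin at thermogenic genes, had the smallest p of the members. Its normalized counts were 1353, 1587 and 1255 in control mice and 2111, 3403 and 2659 in Ntsr2 AKO mice. The lowest Ntsr2 AKO mouse was above the highest control mouse. The group means were 1398 ± 171 (SD, n = 3) and 2724 ± 648 (SD, n = 3). In limma the log2 fold change was 0.94 (standard error 0.20, 95% interval 0.47 to 1.41, adjusted p = 0.499, unadjusted p = 0.00221). On the recovered reads DESeq2 gave 0.97 (standard error 0.23, adjusted p = 0.00589), and called this member alone, while edgeR gave 0.97 with an adjusted p of 0.569. DESeq2 called 0.408% of all genes as higher. Over all alternatives the adjusted p of Ebf2 ranged from 0.00589 to 0.9997. Ebf2 lies on the plus strand at chr14:67233292-67430918, and 424 bases of its exons are shared with the antisense gene Gm10860, which had at most 25.8 normalized counts in a mouse.

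Kcnk3 had 2396, 2177 and 1564 normalized counts in control mice and 3372, 3204 and 2687 in Ntsr2 AKO mice. The groups did not overlap, and control 5 was lowest. The group means were 2045 ± 431 (SD, n = 3) and 3088 ± 357 (SD, n = 3), and the log2 fold change in limma was 0.61 (standard error 0.19, 95% interval 0.16 to 1.06, adjusted p = 0.523, unadjusted p = 0.0149). Leaving out control 5, the library with the most muscle transcripts, gave 0.43 in limma, the lowest value with a mouse left out. Kcnk3 lies at chr5:30588170-30625271 on the plus strand, and 229 bases of its exons are shared with the antisense gene Gm9899, not analysed here.

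Cidea had 2134, 4167 and 3345 normalized counts in control mice and 4513, 5122 and 6410 in Ntsr2 AKO mice. The highest control mouse was 4 and the lowest Ntsr2 AKO mouse was 3, so the groups were close but did not overlap. The group means were 3215 ± 1023 (SD, n = 3) and 5349 ± 969 (SD, n = 3). In limma the log2 fold change was 0.77 (standard error 0.26, 95% interval 0.15 to 1.40, adjusted p = 0.558, unadjusted p = 0.0224). Without control 3 the limma log2 fold change of Cidea was 0.50, its lowest with a mouse left out. Without Ntsr2 AKO 5 the limma unadjusted p of Cidea was 0.0728, and without Ntsr2 AKO 3 that of Kcnk3 was 0.0520. Without the 3 libraries rich in muscle transcripts, an alternative chosen after the data were seen, 2 control mice faced 1 Ntsr2 AKO mouse, whose spread was assumed to be that of the controls. The log2 fold changes were then 0.53 for Ebf2, 0.56 for Kcnk3 and 0.60 for Cidea, and 0 of the 9 members had an unadjusted p under 0.05 in limma. With the level of the muscle list as a covariate they were 0.94, 0.64 and 0.75.

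**Figure D2:**
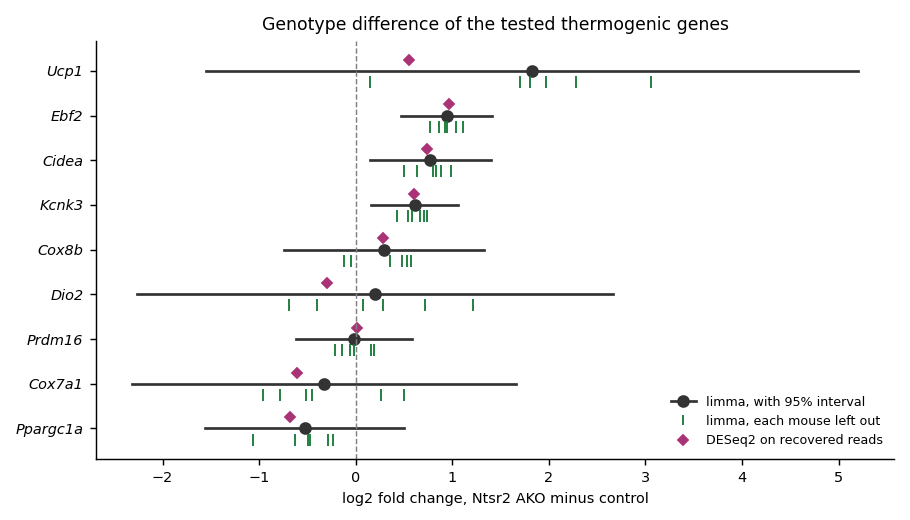
Log2 fold change (Ntsr2 AKO minus control) of the 9 tested members, with the 95% interval from limma, the limma values with each mouse left out (ticks) and the DESeq2 value (diamonds). The intervals of Ebf2, Cidea and Kcnk3 lie above 0, and the ticks of Cox8b, Dio2, Prdm16 and Cox7a1 fall on both sides of 0.

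Ucp1, the uncoupling protein itself, had 0, 54 and 19 reads in control mice and 28, 41 and 36 in Ntsr2 AKO mice. In normalized counts these were 0, 55.7 and 18.2 in control mice and 28.9, 42.5 and 36.4 in Ntsr2 AKO mice. The control mice spanned the whole range, with the highest value in control 4 and no read in control 3, where a count of 0 allows up to 3 reads or 2.76 normalized counts. In limma the difference of 1.83 on the log2 scale (standard error 1.42, adjusted p = 0.746) rested on control 3. It was 0.15 without that mouse, and 0.55 in DESeq2. No tool called a difference in Ucp1. The gene lies at chr8:83290352-83298452 on the plus strand.

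Dio2 had 12.0, 179.5 and 36.5 normalized counts in control mice and 23.7, 44.6 and 116.4 in Ntsr2 AKO mice. Control 4 was highest and control 3 lowest, as for Ucp1. The limma log2 fold change was 0.20 (standard error 1.03, adjusted p = 0.968), and it was -0.30 in DESeq2 and edgeR. Exons of Dio2 share 100 bases with the antisense gene Gm26512, which had up to 19.2 normalized counts, so single reads of Dio2 are uncertain. Elovl3 had 0, 0 and 6 reads in control mice and 0, 13 and 23 in Ntsr2 AKO mice. Reads were thus found in 3 of the 6 mice, and those were the 3 libraries rich in muscle transcripts. The part of muscle tissue in this pattern was not tested. Exons of Elovl3 share 10 bases with the antisense gene Pitx3, which had up to 62.4 normalized counts, in control 5.

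The transcriptional regulators other than Ebf2 did not separate by genotype. Ppargc1a had 386, 1204 and 1121 normalized counts in control mice and 639, 513 and 527 in Ntsr2 AKO mice. Control 4 and 5 were above all Ntsr2 AKO mice, and control 3 was below them. The limma log2 fold change was -0.53 (standard error 0.43, adjusted p = 0.758). Without control 3 it was -1.06, with an adjusted p of 0.571 in limma and an unadjusted p of 0.00107. Prdm16 had 1069, 712 and 797 normalized counts in control mice and 1104, 846 and 631 in Ntsr2 AKO mice. Prdm16 averaged 859 ± 186 (SD, n = 3) and 860 ± 237 (SD, n = 3), with a limma log2 fold change of -0.01 (95% interval -0.61 to 0.59, adjusted p = 0.991). Its highest values in both genotypes were in replicate 3.

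The cytochrome c oxidase members were then set beside muscle. The skeletal muscle list (28 genes of the sarcomere and of fast and slow fibres) summed to 4195, 4228 and 3986736 normalized counts in control mice and to 4575, 131511 and 285633 in Ntsr2 AKO mice. These sums were 6.29% of all counts in control 5, 0.502% in Ntsr2 AKO 5 and 0.235% in Ntsr2 AKO 4. Of the 28 genes, 23 followed the order control 5, Ntsr2 AKO 5, Ntsr2 AKO 4, then the other mice. The fast myosin Myh4 was at 0 in control 3 and Ntsr2 AKO 3, at 4.13 in control 4, and at 1132546 in control 5. Muscle creatine kinase, Ckm, had at most 3.68 normalized counts in control 3, control 4 and Ntsr2 AKO 3, 364935 in control 5, 11037 in Ntsr2 AKO 4 and 27228 in Ntsr2 AKO 5. Skeletal alpha-actin, Acta1, had 821, 303 and 360345 in control mice and 1393, 10641 and 25173 in Ntsr2 AKO mice.

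Cox7a1 had 101, 190 and 781 normalized counts in control mice and 86.7, 234 and 375 in Ntsr2 AKO mice. Its order over the mice was that of the muscle list, with control 5 highest, then Ntsr2 AKO 5 and Ntsr2 AKO 4. It was the only one of the 10 members of which this held. The limma log2 fold change was -0.32 (standard error 0.84, adjusted p = 0.932). Without control 5 it was 0.50, and without Ntsr2 AKO 3 it was 0.26. With the level of the muscle list as a covariate it was -0.49 (limma unadjusted p = 0.172). The part of muscle tissue in the level of Cox7a1 was not tested. Relative to the mean of the 3 mice poor in muscle transcripts, the excess of Cox7a1 was 0.164 normalized counts for each 1000 of the muscle list in control 5, 0.852 in Ntsr2 AKO 4 and 0.887 in Ntsr2 AKO 5. These ratios differed between mice, and their pattern over the mice was not the same in other genes. In the same order of mice, Fabp3 had 0.331, 0.911 and 0.398 and Cox6a2 had 1.12, 2.45 and 1.36. Cpt1b had 0.707, 1.191 and 1.296, and the mitochondrial creatine kinase Ckmt2 had 1.599, 0.970 and 1.889. The ratio was highest in Ntsr2 AKO 4 for Fabp3 and Cox6a2, and in Ntsr2 AKO 5 for Cox7a1, Cpt1b and Ckmt2. The 3 mice poor in muscle transcripts ranged from 86.7 to 190 for Cox7a1 and from 130 to 189 for Cpt1b. The ratios leave out this spread, so the order of Ntsr2 AKO 4 and 5 is uncertain for both genes.

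Cox8b had 1281, 2960 and 3164 normalized counts in control mice and 1891, 2592 and 4502 in Ntsr2 AKO mice. Control 4, with few muscle transcripts, was above Ntsr2 AKO 4, so the order was not that of muscle. The limma log2 fold change was 0.29 (standard error 0.44, adjusted p = 0.870), and it was -0.13 without control 3 and -0.05 without Ntsr2 AKO 5. Both genes lie on chromosome 7, Cox7a1 at 30184144-30186078 and Cox8b at 140898945-140900446.

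**Figure D3:**
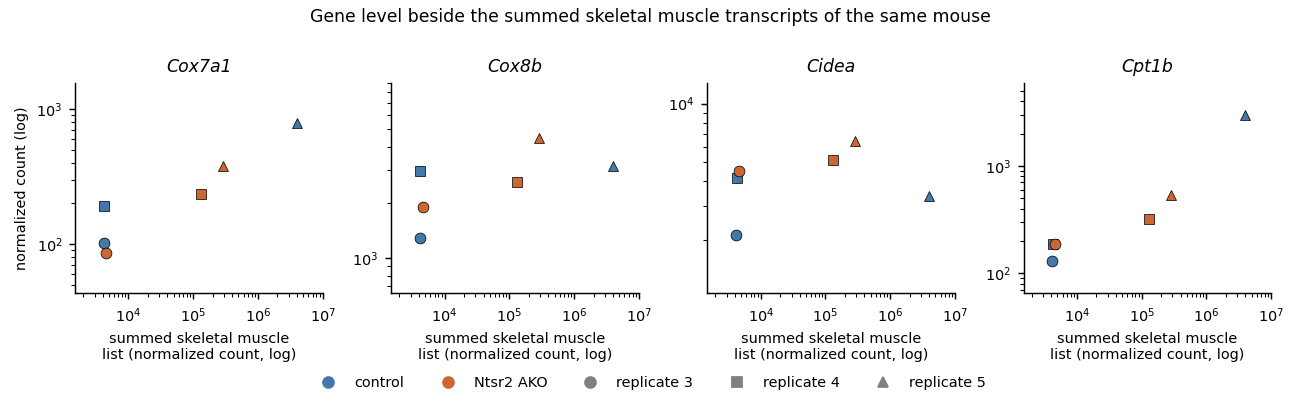
Normalized counts of Cox7a1, Cox8b, Cidea and Cpt1b in the 6 mice (log axis) against the summed normalized counts of the 28 muscle genes in the same mouse (log axis). Cox7a1 and Cpt1b are highest in the 3 mice with muscle sums of 131511 or more, whereas Cox8b and Cidea of control 5 lie within the range of the other mice.

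Within a library, the tissue-restricted subunit was expressed as a share of its pair per kb of exon, a value that does not depend on the size factor. It does depend on the exon lengths. Without division by length, the share in control 5 was 12.6% for Cox7a1 and 13.1% for Cox8b. Cox7a1 made up 3.26%, 4.15% and 20.3% of Cox7a1 and Cox7a2 in control mice and 2.78%, 5.03% and 6.11% in Ntsr2 AKO mice. The group means were 9.24% ± 9.60 (SD, n = 3) and 4.64% ± 1.70 (SD, n = 3), with p = 0.80 by a two-sided exact permutation test, which cannot go below 0.10 with 3 against 3. Cox8b made up 7.59%, 13.9% and 20.5% of Cox8b and Cox8a in control mice and 11.7%, 13.6% and 19.4% in Ntsr2 AKO mice. The group means were 14.0% ± 6.48 (SD, n = 3) and 14.9% ± 4.02 (SD, n = 3), with p = 1.0 by the same exact permutation test.

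Cox6a2, the heart and muscle partner of Cox6a1 that is also expressed in brown fat, gave another pair. Its share was 0%, 0.0506% and 18.7% in control mice and 0%, 0.974% and 1.11% in Ntsr2 AKO mice, with p = 0.90 by the exact permutation test. Control 5 was highest in all of these shares. The 11 ubiquitous cytochrome c oxidase transcripts had log2 fold changes from 0.00 to 0.34 with a median of 0.26, and their lowest unadjusted p in limma was 0.125. Each was lowest in control 3 or control 5, and 10 of the 11 were highest in Ntsr2 AKO 5.

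**Figure D4:**
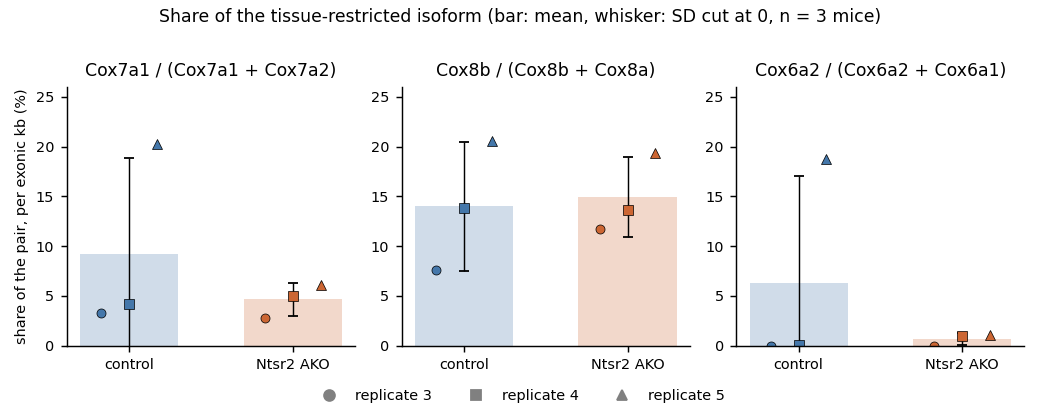
Share (%) of the tissue-restricted cytochrome c oxidase transcript in its pair, per kb of exon, in each mouse, with the mean (bar) and SD (whisker, cut at 0) of 3 mice. Control 5 reaches 20.3%, 20.5% and 18.7% in the 3 panels, and Cox6a2 is at most 0.0506% in the 3 mice poor in muscle transcripts.

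Other genes of the pathway were examined as 6 lists of 87 genes, of which 83 were tested. limma called 0 of the 83 at an adjusted p under 0.05, and at an unadjusted p under 0.05 it gave 2 higher (2.41%) and 5 lower (6.02%) in Ntsr2 AKO mice, beside 3.08% and 5.27% of all genes. These were 7 genes together. A limma recount over the lists gave 4 without control 5 or without Ntsr2 AKO 4, and 3 without Ntsr2 AKO 5. The recounted genes need not be the same ones. Every Ntsr2 AKO mouse lay above every control mouse in 3 of the 83 and below in 6, beside 6.82% and 8.16% of all genes. The median log2 fold change of the 83 was 0.05. edgeR called 0 at the adjusted threshold and gave 6 (7.23%) at an unadjusted p under 0.05, near its 8.19% of all genes. DESeq2 called 3 (3.61%, beside 1.36% of all genes), Mpzl2 as higher and Nrf1 and Hspb7 as lower. Over all alternatives the adjusted p of each of these 3 ranged from its DESeq2 value to 0.9997.

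Of 14 activators, 2 had an unadjusted p under 0.05 and both were lower. Nrf1, nuclear respiratory factor 1, a regulator of mitochondrial genes, had 1208, 1229 and 1133 normalized counts in control mice and 864, 852 and 790 in Ntsr2 AKO mice. The groups did not overlap, and the limma log2 fold change was -0.51 (standard error 0.12, adjusted p = 0.520), against an adjusted p of 0.0194 in DESeq2. Cebpb, a partner of PRDM16 in the brown fat programme, had a log2 fold change of -0.57 (limma adjusted p = 0.581), and Zfp516, a cold-induced factor that binds the Ucp1 promoter, had -0.26 (limma adjusted p = 0.643).

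Of 9 repressors, 0 had an unadjusted p under 0.05 in limma. Those with the smallest p were Rbl1 (log2 fold change 0.30), a pocket protein related to RB1, then Hoxc10 (-0.27), a repressor of browning, and Tle3 (-0.40), a corepressor that opposes PRDM16. Of the signals and receptors, 18 of 21 were tested and 0 had an unadjusted p under 0.05 in limma. The thyroid hormone receptor Thrb (0.41), the secreted factor Nrg4 (0.38) and the natriuretic peptide receptor Npr1 (0.29) had the smallest p. Of 17 genes of fuel oxidation and mitochondria, 0 had an unadjusted p under 0.05, and Otop1 (0.58), the carnitine carrier Slc25a20 (0.16) and the kinase Pdk4 (-0.51) came first.

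Cpt1b, Fabp3 and Cox6a2 are among the genes of this list that are shared with muscle. Cpt1b, the muscle form of carnitine palmitoyltransferase, had 130, 189 and 2982 normalized counts in control mice and 188, 320 and 533 in Ntsr2 AKO mice. Fabp3, the heart and muscle fatty acid binding protein, had 19.3, 12.4 and 1333 in control mice and 9.29, 129.6 and 125.5 in Ntsr2 AKO mice. Cox6a2 had 0, 14.4 and 4480 in control mice and 0, 316 and 387 in Ntsr2 AKO mice. All 3 were highest in control 5 and lower in the 3 mice poor in muscle transcripts than in any of the others. Ucp3 and Pdk4 of the same list were also highest in control 5, at 1748 and 9141 normalized counts per kb of exon.

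UCP1-independent heat production runs through creatine and calcium cycles, and 9 of the 10 genes of this list were tested. Gamt, the last enzyme of creatine synthesis, had a log2 fold change of -0.37 (limma unadjusted p = 0.0424), and Atp2a2, the SERCA2 calcium pump, had -0.28 (limma unadjusted p = 0.0476). Of the 9 genes, edgeR gave 1 at an unadjusted p under 0.05, and limma and DESeq2 called 0 at an adjusted p under 0.05. In Gamt and Atp2a2 every Ntsr2 AKO mouse lay below every control mouse, a pattern found in 8.16% of all genes. The creatine transporter Slc6a8 had -0.54 with an unadjusted p of 0.0834. The mitochondrial creatine kinase Ckmt2 was listed at 0 in the 3 mice poor in muscle transcripts and at 6368 in control 5, 123 in Ntsr2 AKO 4 and 531 in Ntsr2 AKO 5.

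Among 16 brown and beige identity markers, limma gave an unadjusted p under 0.05 to 2 higher and 1 lower. Mpzl2, a cell adhesion protein, had 231, 239 and 225 normalized counts in control mice and 454, 499 and 344 in Ntsr2 AKO mice. The groups did not overlap, and the log2 fold change was 0.88 (standard error 0.20, limma adjusted p = 0.520), and the DESeq2 adjusted p was 0.0137. Clstn3 had 1053, 1577 and 1100 in control mice and 1511, 2013 and 2188 in Ntsr2 AKO mice, with a log2 fold change of 0.62 (limma adjusted p = 0.562). Hspb7, a small heat shock protein of heart and muscle, had 492, 41.3 and 886 in control mice and 32.0, 21.8 and 40.5 in Ntsr2 AKO mice. Its log2 fold change was -3.07 (standard error 1.08, limma adjusted p = 0.565, DESeq2 adjusted p = 0.00111), and control 4 was within 1 normalized count of Ntsr2 AKO 5.

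**Figure D5:**
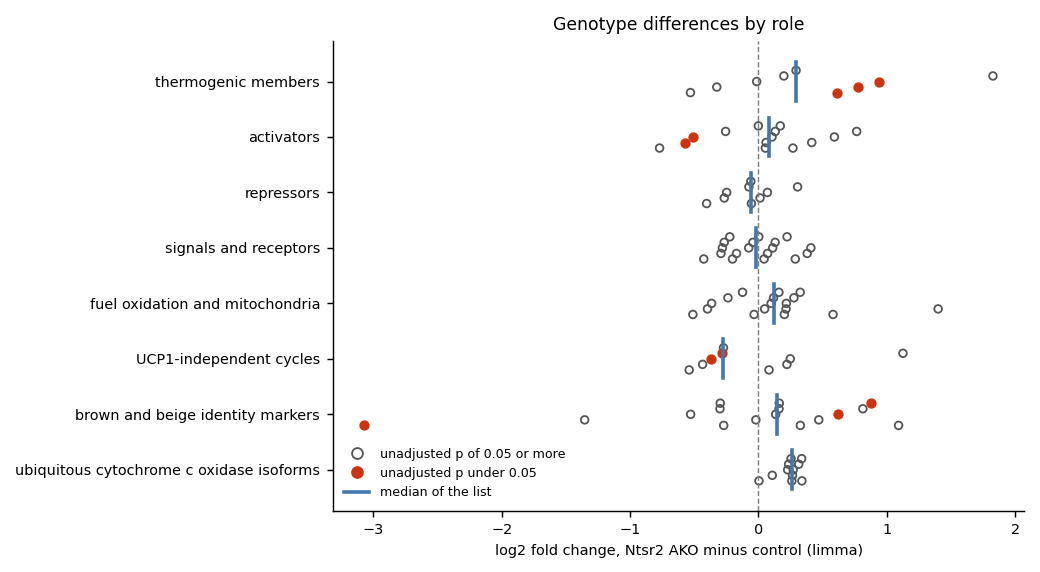
Limma log2 fold changes (Ntsr2 AKO minus control) of each tested gene in the members, the 6 role lists and the ubiquitous cytochrome c oxidase transcripts, with list medians (blue lines) and an unadjusted p under 0.05 as filled points. Filled points comprise 3 members, all above 0, and 7 genes of the role lists, 5 of them below 0.

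The genes whose pattern over the 6 mice was nearest to 2 of the members were found from standardized log2 values among 16156 genes. The 5 nearest to Ucp1 were Apeh, Mtf2, Rab19, Prkcb and Trpv3, with root mean square differences from 0.0605 to 0.173. Each was lowest in control 3, where Ucp1 had no read, and this follows from choosing genes by nearness to Ucp1. Apeh had 1867 normalized counts in control 3 and 2125 to 2227 in the other mice, a far narrower range than that of Ucp1. The 5 nearest to Cox7a1 were Tmem52, Snapc1, Scn4a, Kcna7 and Cdc34, with differences from 0.0938 to 0.161. Scn4a, the sodium channel of skeletal muscle, had 0, 13.4 and 6482 normalized counts in control mice and 0, 135 and 380 in Ntsr2 AKO mice. Among the same genes Myh4 ranked 213, Ckm 228 and Acta1 446 in nearness to Cox7a1.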

How the data were processed

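Poly-A RNA of WATs from 6 mice was sequenced with paired ends. The authors used Trimmomatic for trimming, Hisat2 for alignment and StringTie for quantification, and the submitters' processing notes name mm10. The deposited signal values are read counts divided by 1 size factor for each mouse, as read from the values, since whole reads came out for 100% of values (tolerance 0.01). StringTie derives counts from coverage, so these reads are approximate. The strand setting of the counting is not given in the sources used here, so reads of antisense genes cannot be told apart.

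Values were taken as log2(normalized count + 1) and tested with limma 3.58.1 (eBayes with trend, no covariates) in R 4.3.3 for genes with a mean of at least 10, with a threshold of 0.05 after Benjamini-Hochberg adjustment over all genes. Because these are no longer whole counts, edgeR 4.0.16 and DESeq2 1.42.0 on recovered reads were alternatives, together with other pseudocounts, filters, quantile normalization, no trend, the replicate number as a block, a muscle covariate and the omission of each mouse. Procedures were tested on simulated counts. Nothing says whether samples share a litter or day, and the number of mice limits precision. Counting limits cover counting error only.

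The members and lists were chosen with earlier results of these data known. Named genes are the 10 members, all genes past the threshold and the 3 with the smallest p in each role list, the 5 nearest patterns to Ucp1 and to Cox7a1, Acta1, Ckm, Myh4, Ntsr2 and paired cytochrome c oxidase genes. Other genes were named after their values were seen. Gene positions and exon lengths are from GENCODE M21 (GRCm38), and promoters are from RefSeq. The symbols Gk and Adgre1 were matched as Gyk and Emr1, and Upk1b was not matched. Marker sums in control and Ntsr2 AKO mice ranged from 80259 to 130691 and 99093 to 182848 for progenitors, 157 to 470 and 142 to 177 for mesothelium, 16734 to 25524 and 17330 to 22656 for vascular endothelium, 26116 to 80517 and 27867 to 65984 for macrophages, 177 to 1088 and 184 to 290 for lymphocytes, and 45.1 to 278 and 34.2 to 39.5 for epithelium. Within the mesothelial list, Msln, Upk3b and Wt1 had at most 6.57, 1.04 and 0.490 normalized counts per kb of exon in a mouse.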

Additional observations from a re-analysis of the deposited data

How the results depend on the processing

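Precision was limited by the 3 mice a group. The low genes Ucp1, Dio2 and Elovl3 also had few reads, and their control mice differed widely (coefficients of variation of 115% for Ucp1 and 119% for Dio2). The number of members past the adjusted threshold was 0 in limma and 1 (Ebf2) in DESeq2, and 0 with every mouse left out in turn. At an unadjusted p under 0.05 in limma, the number of members was 3 with all mice and 2 to 4 with a mouse left out. The 4 without control 3 included Ppargc1a, which was lower in Ntsr2 AKO mice (log2 fold change -1.06). The omission of the 3 libraries rich in muscle transcripts (control 5, Ntsr2 AKO 4 and 5) was chosen after the data were seen. It left 1 Ntsr2 AKO mouse. Of the wider thermogenic genes, 3 passed the adjusted threshold in DESeq2 against 0 in limma. Those at an unadjusted p under 0.05 numbered 7, and 4 without the mean-variance trend, 3 to 8 with a mouse left out (4 without control 5, 4 without Ntsr2 AKO 4, 3 without Ntsr2 AKO 5) and 3 without the 3 libraries rich in muscle transcripts. Over all genes 1 passed the adjusted threshold in limma, and 220 in DESeq2, 0 in edgeR, with no filter, without the trend, with the replicate block, with the muscle covariate or without the 3 libraries rich in muscle transcripts, and 0 with each mouse left out in turn. Quantile normalization turned the genes at an unadjusted p under 0.05 from 497 higher and 852 lower to 633 higher and 612 lower (control 5 left out, 503 and 552).

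The direction of Ucp1, Cidea, Kcnk3, Ebf2 and Ppargc1a held in all alternatives run, which for Ucp1 were 16. The log2 fold change of Dio2 reversed to -0.30 in edgeR and DESeq2, -0.69 without control 3, -0.40 without Ntsr2 AKO 5 and -0.97 without the 3 libraries. Cox7a1 reversed to 0.50 without control 5 and 0.26 without Ntsr2 AKO 3. Cox8b reversed to -0.13 without control 3, -0.05 without Ntsr2 AKO 5 and -0.042 without the 3 libraries. Prdm16 reversed to 0.019 with quantile normalization, 0.012 in edgeR, 0.0083 in DESeq2, 0.010 with the muscle covariate, 0.15 without control 3, 0.19 without Ntsr2 AKO 5 and 0.34 without the 3 libraries. With a mouse left out, these log2 fold changes ranged from -0.69 to 1.21 for Dio2, -0.96 to 0.50 for Cox7a1, -0.13 to 0.58 for Cox8b and -0.21 to 0.19 for Prdm16. The genotype difference in the Cox7a1 share (-4.60 percentage points) ranged from -7.59 to 0.93 with a mouse left out and was 0.93 without control 5. For the Cox8b share (0.91) the range was -2.30 to 4.18, with -2.30 without control 3 and -1.35 without Ntsr2 AKO 5. For the Cox6a2 share (-5.57) it was -8.70 to 0.67, with 0.67 without control 5. The cause of these changes was not tested, except that each omission leaves fewer mice.

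The numbers 3, 4 and 5 occur in both genotypes but name different animals, and after each group's mean was taken off, mice of equal number correlated across genes at 0.45, -0.24 and 0.41, and not every pair was above 0.1, so a pairing by number was not established. With the replicate number as a block, limma gave unadjusted p values of 0.00139 for Ebf2, 0.00477 for Kcnk3 and 0.00807 for Cidea, and 0 of 16157 genes passed the adjusted threshold.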
